A study of Mus musculus with 6 samples.

Results

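The genes described here are 9 homeobox genes of the leukaemic HOX programme, chosen by name: Hoxa3, Hoxa5, Hoxa6, Hoxa7, Hoxa9, Hoxa10 and Hoxa11 of the Hoxa cluster on mouse chromosome 6, Meis1 on chromosome 11 and Pbx3 on chromosome 2. They were read on 6 expression arrays, 3 from MLL-AF9 leukaemias of wild-type mice (WT) and 3 from MLL-AF9 leukaemias of mice with an Evi1 transgene (Evi1 Tg). Both groups were on the C57BL/6J background, were untreated and carried MLL-AF9, and each array took total RNA of 10000 leukaemia cells sorted for green fluorescence. By its title the series asks how EVI1 alters metabolism in acute myeloid leukaemia, and the arrays allow the single comparison of these groups. The labels give neither the animals' age nor the promoter that drives the transgene. Nor do they say if each array stands for a different mouse, and p-values here therefore cover the spread between samples, which may be technical. Of 22180 genes with a probe set of their own, 8 were members. Hoxa11 had no probe set that carried its symbol alone and is given below with the antisense transcript that shares its probe sets.

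Hox genes encode transcription factors that set position along the body axis in the embryo, and the 5′ genes of the Hoxa cluster also maintain immature blood cells. HOX proteins bind DNA together with proteins of the TALE class, to which the MEIS and PBX families belong. The MLL-AF9 fusion protein, made from the genes Kmt2a and Mllt3, keeps Hoxa genes and Meis1 active in leukaemia cells, and HOXA9, MEIS1 and PBX3 together sustain such leukaemias. EVI1, a zinc finger transcription factor encoded by Mecom, is known from acute myeloid leukaemias of poor outcome.

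Median intensity ran from 51.6 to 55.4 on the 6 arrays (34351 probe sets), and their values correlated across genes at Pearson r of 0.978 to 0.992 within groups and 0.972 to 0.985 between groups, where genes are not independent replicates. A background level was set at an intensity of 62.4, the 90th percentile of the means of 61 genes listed as silent in blood cells. Csn2, with a mean of 1975, was 1 of 6 such genes above that level. Of 10 genes that mark myeloid cells 10 lay above it, whereas 0 of 7 T and NK cell genes and 1 of 7 B cell genes (Cd79b) did. For other lineages, 4 of 4 measured megakaryocyte genes, 2 of 9 stromal and endothelial genes and 0 of 3 erythroid genes lay above that level. Mecom lay below it on every array, with intensities of 34.1 to 39.4 in WT and 37.5 to 40.7 in Evi1 Tg, so these probes do not check the transgene, and each direction rests on the labels. Genes of cell division varied by array. Their median log2 deviation from the mean over 6 arrays was -0.61 in WT 1 and -0.69 in WT 2, against 0.33 in WT 3 and 0.26 to 0.34 in Evi1 Tg.

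Hoxa7, Meis1 and Pbx3 lay higher on all 3 Evi1 Tg arrays than on any WT array, Hoxa10 lay lower on all 3, and Hoxa9 had the same mean in both groups. None of the 8 members passed limma's moderated test with Benjamini-Hochberg adjustment over all genes (0 of 8 at an adjusted p under 0.05, smallest adjusted p = 0.195). Of all 22180 genes 0.113% passed, 0.00902% higher and 0.104% lower in Evi1 Tg. At an unadjusted limma p under 0.05 there were 4 members on the higher side in Evi1 Tg (Hoxa3, Hoxa7, Meis1 and Pbx3) and 1 on the lower side (Hoxa10), beside 10.3% of all genes in either direction (4.5% higher and 5.8% lower). The groups did not overlap for 4 of 8 members, 3 higher and 1 lower, beside 14.6% of all genes (7.08% higher and 7.47% lower) and 18.6% of the 11180 genes above background. The median log2 difference of the 8 members was 0.29, beside 0.012 over all genes. It was 0.18 without WT 3 and 0.18 without Evi1 Tg 3. With 3 arrays in each group the smallest p of an exact two-sided permutation test is 0.1, and the test gave 0.1 for each of the 4 members whose groups did not overlap.

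**Figure D1:**
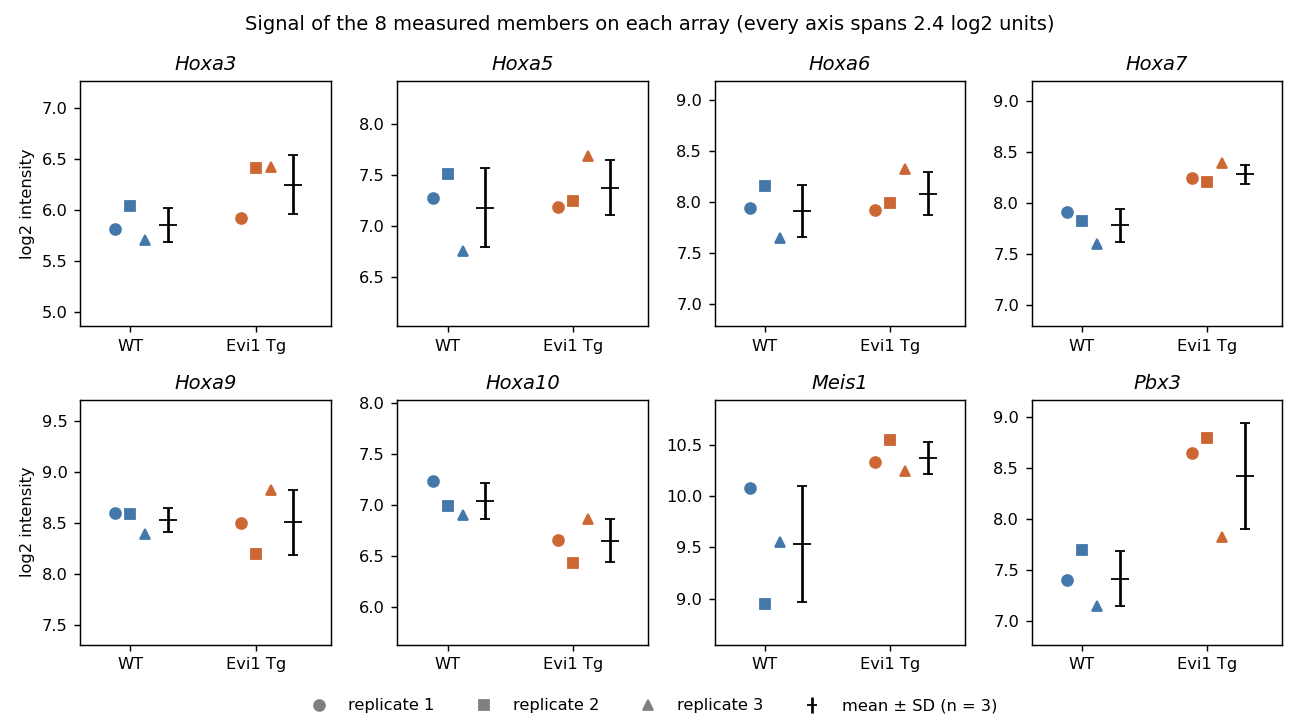
Log2 intensity of the 8 measured members on each array, with circles, squares and triangles for replicates 1, 2 and 3 (WT in blue, Evi1 Tg in orange) and black bars for the mean and SD of 3 arrays. The groups stand apart for Hoxa7, Meis1, Pbx3 and, narrowly, Hoxa10, and overlap for the other 4 genes.

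Meis1 encodes a TALE partner of HOX proteins that stabilises their binding to DNA. Its intensities were 1085, 494 and 754 in WT 1, 2 and 3 and 1298, 1499 and 1215 in Evi1 Tg 1, 2 and 3. The Evi1 Tg arrays lay close together and the WT arrays far apart, with WT 2 lowest. On the log2 scale the difference was 0.85 (SE 0.265, 95% interval 0.22 to 1.48, n = 3 per group, limma adjusted p = 0.328). It was 0.56 without WT 2 and 1.13 without WT 1. Genes of mature granulocytes and macrophages also set WT 2 apart. The median log2 deviation of these 11 measured genes (of 12 listed) was 1.25 in WT 2, against -0.11 in WT 1, -0.55 in WT 3. On Evi1 Tg 1, 2 and 3 it was 0.030, -0.91 and 0.22. Their summed intensity ran from 4526 to 12507 in WT and from 5456 to 10605 in Evi1 Tg, and 10 of the 11 lay above background. Whether mature cells had a part in the Meis1 values was not tested, and fewer cells of a type cannot be told apart from less RNA per cell in such samples.

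Pbx3 encodes the PBX partner that HOXA9 and MEIS1 bind in leukaemia cells. Its intensities were 169, 207 and 142 in WT compared with 400.2, 441 and 227 in Evi1 Tg. Evi1 Tg 1 and 2 were about as high as each other, while Evi1 Tg 3 lay nearer to WT 2 than to the arrays of its own group. The log2 difference of 1.01 was the largest of the 8 members (SE 0.265, 95% interval 0.38 to 1.63, limma adjusted p = 0.252). Without Evi1 Tg 3 it was 1.30 (SE 0.170 and limma adjusted p = 0.0738), and the adjusted p lay between 0.0738 and 0.678 over 15 alternatives.

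Within the Hoxa cluster the order of the groups differed from gene to gene. Hoxa7, a central gene, had intensities of 241, 227 and 194 in WT versus 303, 296 and 336 in Evi1 Tg. The highest WT array (241) lay below the lowest Evi1 Tg array (296), a gap about as wide as the spread within WT. The log2 difference was 0.50 (SE 0.108, 95% interval 0.24 to 0.75, limma adjusted p = 0.195), the smallest p of the members. A further probe set that names Hoxa7 together with the noncoding transcript Mira, which is made from DNA beside Hoxa7, read 323, 238 and 232 in WT compared with 563, 438 and 457 in Evi1 Tg. It showed the same separation, with a log2 difference of 0.89 in a fit over all probe sets (SE 0.160, 95% interval 0.51 to 1.27, limma adjusted p = 0.175).

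Hoxa9, the main leukaemic gene of the cluster, had intensities of 386, 384 and 335 in WT versus 361, 292 and 453 in Evi1 Tg. The highest and the lowest of the 6 arrays were both Evi1 Tg arrays. Means were 369 ± 29.1 (SD, n = 3) and 369 ± 80.3 (SD, n = 3), a log2 difference of -0.020 (SE 0.162 and limma adjusted p = 0.986). Its 95% interval ran from -0.40 to 0.36, that is from a ratio of 0.756 to one of 1.29. A difference either way within these bounds is not excluded by 3 arrays per group. The sign turned without WT 1 (0.016), WT 2 (0.012) or Evi1 Tg 2 (0.14).

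Hoxa10, which lies 5′ of Hoxa9 and is also an oncogene of myeloid leukaemia, had intensities of 151, 127 and 119 in WT compared with 101, 86.5 and 116 in Evi1 Tg. The groups did not overlap, but WT 3 and Evi1 Tg 3 were nearly equal. The log2 difference was -0.39 (SE 0.139, 95% interval -0.72 to -0.060, limma adjusted p = 0.397).

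Hoxa11, the most 5′ member, could be read only through probe sets that also name Hoxa11os, its antisense transcript, so sense and antisense RNA cannot be told apart here. One of them (probe set 17466887) had intensities of 170.0, 117 and 149 in WT versus 76.6, 55.7 and 104 in Evi1 Tg. All Evi1 Tg arrays lay below all WT arrays, and the log2 difference was -0.92 (SE 0.241, 95% interval -1.49 to -0.34, limma over all probe sets, adjusted p = 0.292). The other (probe set 17458616) read 112, 84.6 and 75.7 in WT compared with 64.6, 54.3 and 78.1 in Evi1 Tg. There the groups overlapped through Evi1 Tg 3, with a log2 difference of -0.46 (SE 0.185, limma over all probe sets, adjusted p = 0.511).

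Hoxa5 and Hoxa6, which lie 3′ of Hoxa7, overlapped between groups. Hoxa5 had intensities of 155, 182 and 108 in WT versus 146, 152 and 205 in Evi1 Tg, and Hoxa6 had 244, 285 and 200.2 in WT compared with 243, 254 and 319 in Evi1 Tg. WT 3 was the lowest and Evi1 Tg 3 the highest array for both genes. The log2 differences were 0.19 for Hoxa5 (SE 0.216 and limma adjusted p = 0.853) and 0.17 for Hoxa6 (SE 0.161 and limma adjusted p = 0.823). Without WT 3 the Hoxa5 difference turned to -0.019 and that of Hoxa6 was 0.033. Hoxa3, a gene of the 3′ part, read 56.4, 65.7 and 52.4 in WT versus 60.6, 85.2 and 85.7 in Evi1 Tg, so that its WT mean of 58.2 ± 6.86 (SD, n = 3) lay below background. Its log2 difference of 0.40 (SE 0.161 and limma adjusted p = 0.462) is bounded by that background, and a second probe set, which also names the noncoding transcript 5730446D14Rik, gave 0.12 (SE 0.158, limma over all probe sets, adjusted p = 0.902) with overlapping groups.

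**Figure D2:**
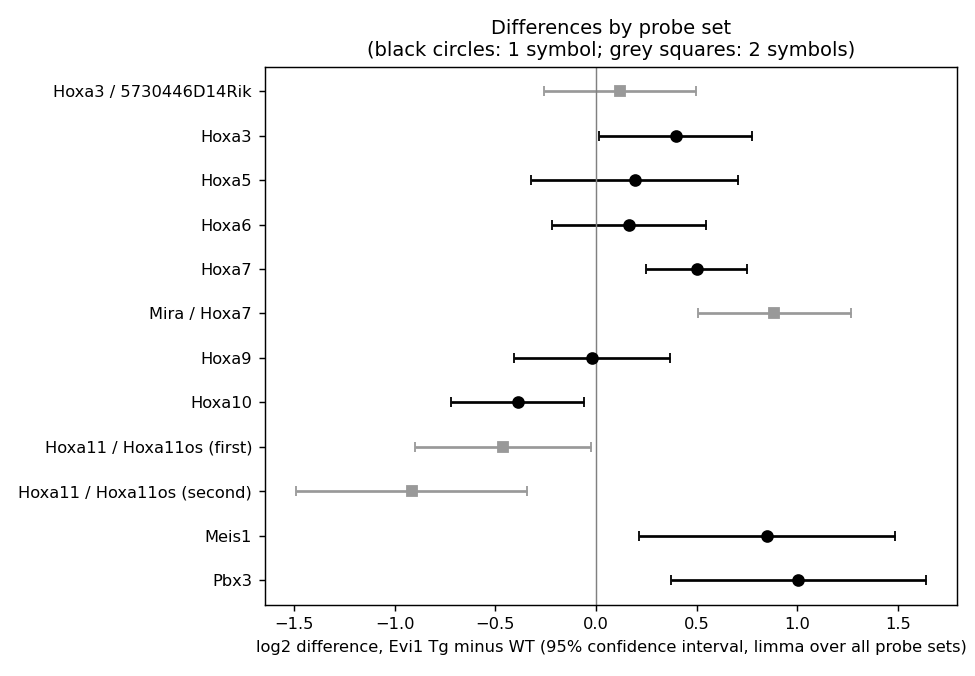
Log2 difference of Evi1 Tg minus WT for each probe set that names a member, with 95% confidence intervals from limma over all probe sets, Hoxa members in the order of the cluster from 3′ to 5′ and Meis1 and Pbx3 below. From 3′ to 5′ the values are 0.12 and 0.40 for the Hoxa3 probe sets, 0.19 for Hoxa5, 0.17 for Hoxa6, 0.50 and 0.89 for the Hoxa7 probe sets, -0.020 for Hoxa9, -0.39 for Hoxa10 and -0.46 and -0.92 for those of Hoxa11, and Meis1 (0.85) and Pbx3 (1.01) follow.

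Differences between neighbouring Hoxa genes within an array do not depend on the scaling of that array. Of the 5 neighbouring pairs among the 6 measured Hoxa members, taken in chromosomal order, 3 had groups that did not overlap (exact two-sided permutation p = 0.1 each, Benjamini-Hochberg adjusted 0.167 over 5 pairs). Hoxa9 minus Hoxa7 was 0.68, 0.76 and 0.79 on the log2 scale in WT 1, 2 and 3, against 0.25, -0.018 and 0.43 in Evi1 Tg 1, 2 and 3. The mean of this ratio was 0.74 ± 0.055 (SD, n = 3) in WT and 0.22 ± 0.23 (SD, n = 3) in Evi1 Tg, a shift of -0.52. Hoxa10 minus Hoxa9 shifted by -0.37, from -1.48 ± 0.12 (SD, n = 3) to -1.85 ± 0.10 (SD, n = 3), although the Hoxa9 means were equal and the Hoxa10 values of replicate 3 nearly so. Hoxa7 minus Hoxa6 shifted by 0.33, from -0.13 to 0.21. No pair passed after adjustment, and none could, since 0.1 is the smallest p of this test with 3 arrays per group. Such a ratio does not tell which gene of a pair differs. The shifts follow from the differences of the single genes given above and add no separate result. How often other neighbouring genes of the genome stand apart in this way was not computed. The pairs Hoxa5 minus Hoxa3 and Hoxa6 minus Hoxa5 overlapped (exact two-sided permutation p = 0.5 and 0.8). Hoxa5 and Hoxa3 are neighbours only among the members, since Hoxa4, measured but no member, lies between them.

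**Figure D3:**
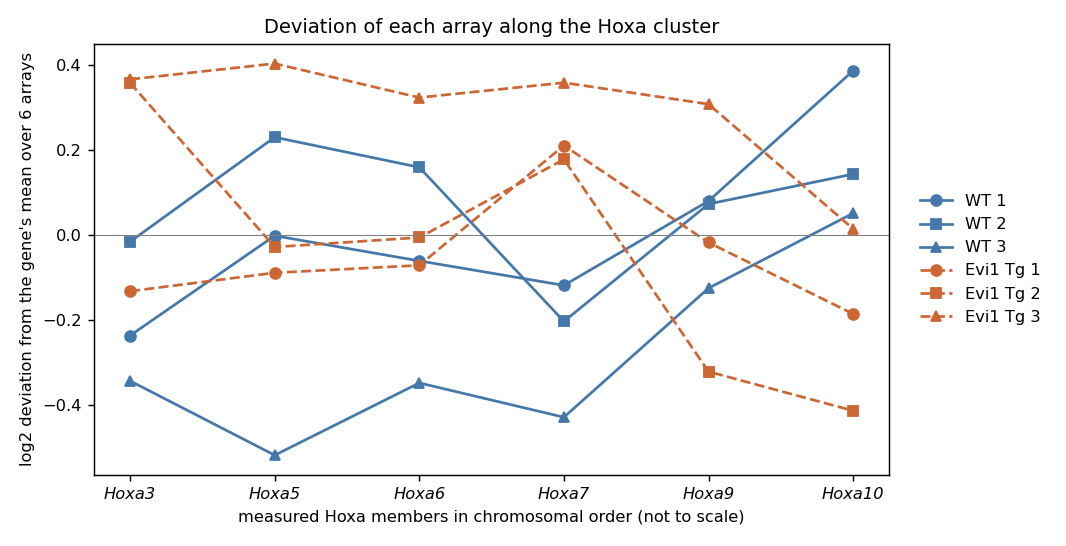
Log2 deviation of each array from the gene's mean over 6 arrays, for the measured Hoxa members in chromosomal order (solid blue lines for WT, dashed orange lines for Evi1 Tg). On the probe sets chosen for the genes shown, WT 3 is the lowest WT array and Evi1 Tg 3 the highest Evi1 Tg array at every gene. All WT arrays lie below all Evi1 Tg arrays at Hoxa7 and above them at Hoxa10.

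Part of the spread was shared among the Hoxa members, as read on the probe set chosen for each. WT 3 was the lowest WT array for 6 of the 6 measured Hoxa members and Evi1 Tg 3 the highest Evi1 Tg array for 6 of 6. Over all genes these arrays held those places for 39.7% and 32.8% of genes. Other readings of the cluster followed this order only in part. Evi1 Tg 3 was lowest of its group on the second Hoxa3 probe set (79.0), and Evi1 Tg 1 was highest on that shared with Mira (563). Evi1 Tg 2 was highest for Hoxa4 (153). Both Hoxa11 probe sets had Evi1 Tg 3 highest (78.1 and 104). WT 3 was the lowest WT array on all of these except the Hoxa11 probe set 17466887, where WT 2 was (117). For Meis1 and Pbx3 Evi1 Tg 3 was instead the lowest array of its group, while WT 3 was the lowest WT array for Pbx3 and the middle one for Meis1. WT 3 was also the WT array with the highest cell division genes, as given above, and the part of cell division in the Hoxa values was not tested.

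The DNA just upstream of the annotated starts is shown for Hoxa7, whose Evi1 Tg arrays all lay higher, Hoxa9, whose means were equal, Hoxa10, whose Evi1 Tg arrays all lay lower, and Meis1. CG dinucleotides are marked because the part of MLL that the fusion retains binds unmethylated CG dinucleotides. The sequences are RefSeq's for GRCm38.p6, all from the minus strand, 250 bases long and written 5′ to 3′ up to the base before the start, with CG dinucleotides in capitals. For Hoxa10 the more upstream of its starts is shown.
Hoxa7 chr6:52218574-52218823: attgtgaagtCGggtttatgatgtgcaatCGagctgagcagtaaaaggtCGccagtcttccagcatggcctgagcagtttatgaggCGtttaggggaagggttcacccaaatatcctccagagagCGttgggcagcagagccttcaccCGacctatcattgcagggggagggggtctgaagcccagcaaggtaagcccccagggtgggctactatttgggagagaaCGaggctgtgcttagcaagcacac
Hoxa9 chr6:52227371-52227620: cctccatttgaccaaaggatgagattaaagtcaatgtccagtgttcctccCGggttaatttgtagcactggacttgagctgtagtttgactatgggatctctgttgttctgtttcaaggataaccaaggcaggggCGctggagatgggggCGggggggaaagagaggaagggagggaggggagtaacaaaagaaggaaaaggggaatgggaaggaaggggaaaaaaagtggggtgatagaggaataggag
Hoxa10 chr6:52240855-52241104: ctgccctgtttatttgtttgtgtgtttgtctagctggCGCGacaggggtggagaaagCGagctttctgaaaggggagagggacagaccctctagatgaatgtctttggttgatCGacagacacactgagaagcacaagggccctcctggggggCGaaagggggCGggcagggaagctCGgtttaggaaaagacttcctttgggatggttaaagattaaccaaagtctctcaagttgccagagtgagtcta
Meis1 chr11:19018970-19019219: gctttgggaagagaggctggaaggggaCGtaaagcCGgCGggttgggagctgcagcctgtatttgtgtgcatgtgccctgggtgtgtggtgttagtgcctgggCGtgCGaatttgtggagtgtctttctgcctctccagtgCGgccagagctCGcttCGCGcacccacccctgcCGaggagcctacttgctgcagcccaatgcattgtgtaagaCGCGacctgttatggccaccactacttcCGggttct
Hoxa9 had 3 CG dinucleotides in this window, a number that 71.0% of the 32851 listed promoters reached or passed, while Hoxa7 and the shown Hoxa10 start had 7 each (46.3%). Meis1 had 13 (31.5%), as had Hoxa11. The starts of Hoxa3, Hoxa5, Hoxa6 and the other Hoxa10 start had 18, 28, 24 and 20, beside a median of 6 over all promoters. On either strand, the HOX-PBX site TGATTNAT was in 0 of the 9 windows (2.82% of all promoters), the EVI1-related motifs GATAAG and GAAGATGAG in 0 (6.55% and 0.347%), and the MEIS hexamer TGACAG in that of Hoxa3 (15.9%). These 9 windows covered 8 members, with Hoxa10 counted at both of its starts. Pbx3 had no listed promoter and was not searched. None of these searched motifs overlaps another. A match or its absence in such a window says nothing about binding.

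The remaining genes of the Hoxa locus were mostly dim. Of 13 listed genes 7 were measured and 0 passed in either direction (limma), with a median log2 difference of -0.023. An unadjusted limma p under 0.05 was reached by 1 of the 7, beside 10.3% of all genes. The gene with that p was Skap2, which encodes an adaptor protein of myeloid cells and borders the 3′ end of the cluster. It had intensities of 1410.2, 1585 and 1485 in WT compared with 868, 847 and 1269 in Evi1 Tg. All Evi1 Tg arrays lay below all WT arrays, with a log2 difference of -0.61 (SE 0.163 and limma adjusted p = 0.256), and Evi1 Tg 3 was again the array nearest to WT. Hoxaas3, an antisense transcript beside Hoxa5 and Hoxa6, lay at 56.2 to 57.2 in WT and 62.1 to 67.3 in Evi1 Tg (log2 difference 0.18, SE 0.0763), around the background. Hoxa4 (113 to 130.1 in WT, 104 to 153 in Evi1 Tg) overlapped between groups, and Hoxa2, Hoxa13 and Evx1 were below background. Hibadh, which encodes an enzyme of valine breakdown, lay at 430.2 to 507 in WT, above its 396 to 415 in Evi1 Tg (log2 difference -0.16, SE 0.0933 and limma adjusted p = 0.626).

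The other Hox clusters were near background in both groups. Of 10 measured Hoxb genes 1 (Hoxb5) had a mean above 62.4, as had 0 of 9 Hoxc genes and 1 of 8 Hoxd genes (Hoxd8). None passed in any of the 3 clusters, and median log2 differences were 0.046, 0.065 and 0.0095. The 2 genes with the smallest p in each were Hoxb6 (0.15) and Hoxb2 (0.16), Hoxc8 (0.17) and Hoxc9 (0.087), and Hoxd1 (-0.21) and Hoxd10 (0.13), all with means below background. Of these clusters only Hoxd1 had an unadjusted limma p under 0.05, beside 10.3% of all genes.

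Of 9 measured genes among the other TALE genes and PBX partners 0 passed in either direction (limma, 0 at an unadjusted p under 0.05), and the median log2 difference was 0.040, which became 0.082 without WT 3 and 0.020 without Evi1 Tg 3. Tgif1, a TALE repressor, had a log2 difference of 0.26 (SE 0.124, 128 to 141 in WT and 140.5 to 190 in Evi1 Tg), with the groups overlapping. Meis2, a paralogue of Meis1, had one of -0.21 (SE 0.112) below background. Pbx4, also below background, was the 1 gene of these 9 whose groups did not overlap, beside 14.6% of all genes.

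Regulators of Hox transcription were measured for 25 of 26 listed genes, and 0 passed in either direction (limma). At an unadjusted limma p under 0.05 there were 3 on the higher and 0 on the lower side, beside 4.5% and 5.8% of all genes. The median log2 difference of the 25 regulators was 0.096, with 16 above 0 and 9 below. It was 0.20 without WT 3 and 0.043 without WT 2. Ctcf, which encodes an insulator protein that divides the Hoxa cluster into domains, had intensities of 622, 606 and 905 in WT versus 983, 992 and 928 in Evi1 Tg. Its log2 difference was 0.47 (SE 0.160 and limma adjusted p = 0.369), with WT 3 close to the Evi1 Tg arrays. Dot1l, the histone H3 lysine methyltransferase recruited by MLL fusions, had 470.1, 451 and 562 in WT compared with 592, 654 and 571 in Evi1 Tg (log2 difference 0.30, SE 0.111, limma adjusted p = 0.421). Without WT 3 the genes Ctcf, Ezh2 and Psip1 passed, as part of 383 genes called higher in that fit. WT 3 was the WT array with the highest cell division genes, whose part in this was not tested. Kmt2a, the gene of MLL, had a log2 difference of 0.077 (SE 0.0849) and Mllt3 one of 0.036 (SE 0.154), with overlapping groups, where the fusion's share of either signal is unknown.

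Of 18 genes reported as targets of HOXA9 or MEIS1, all measured, 0 passed in either direction (limma). At an unadjusted limma p under 0.05 there were 4 on the higher and 1 on the lower side, beside 4.5% and 5.8% of all genes. The median log2 difference of the 18 genes was -0.014, with 9 above 0 and 9 below. Erg, which encodes an ETS factor of blood stem cells, had intensities of 40.0, 124 and 45.2 in WT versus 337, 523 and 418 in Evi1 Tg. The log2 difference was 2.79 (SE 0.418 and limma adjusted p = 0.0906), bounded by background in WT 1 and WT 3, and Erg passed with dim genes left out (adjusted p = 0.0461). Lmo2, an adaptor of blood transcription factors, had 309, 349 and 304 in WT compared with 440.2, 490.0 and 486 in Evi1 Tg (log2 difference 0.56, SE 0.0929, limma adjusted p = 0.113). Cd34, a surface protein of progenitors, was far higher in Evi1 Tg 1 and 2 (573 and 812) than in Evi1 Tg 3 (86.7). WT arrays read 52.1 to 71.5, so Evi1 Tg 3 lay nearest to WT for Cd34, whereas Evi1 Tg 1 did for Erg and Lmo2. How often each Evi1 Tg array lies nearest to WT over all genes was not computed. Myb, an activator that leukaemias with MLL fusions need, had 3795, 3340.5 and 3172 in WT versus 3406, 2994 and 3421 in Evi1 Tg, which overlapped (log2 difference -0.068, SE 0.103).

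**Figure D4:**
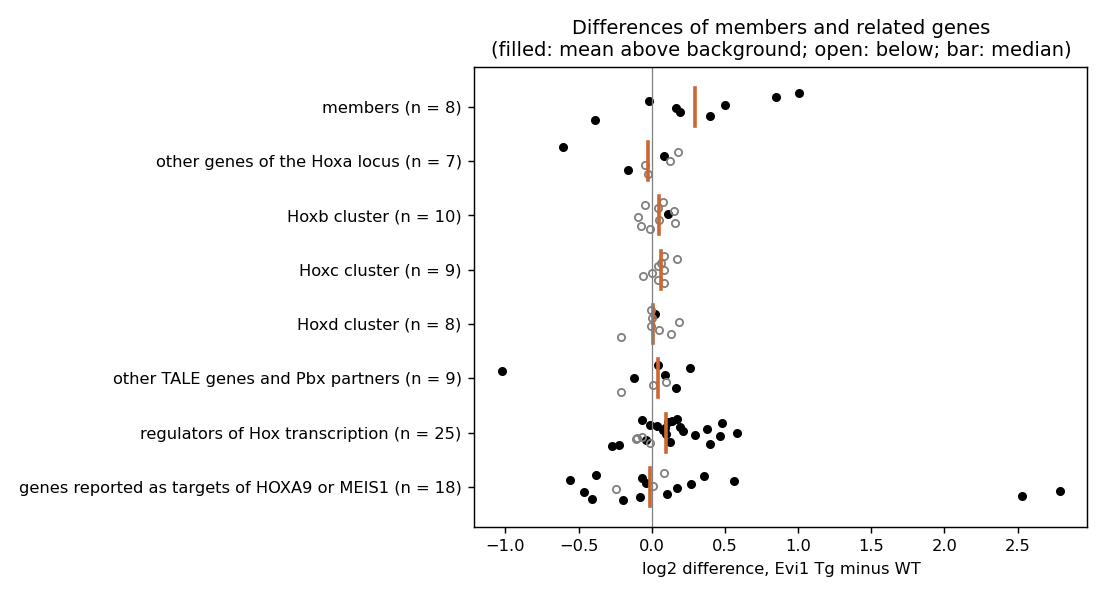
Log2 differences of Evi1 Tg minus WT for the 8 measured members and the genes of 7 related lists, with filled points for genes whose mean lay above background and an orange bar for the median of each list. The medians are 0.29 for the members and between -0.023 and 0.096 for the other lists, and the 2 far points on the right are Erg (2.79) and Cd34 (2.53).

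The genes most like Hoxa9, Meis1 and Pbx3 in their pattern over the 6 arrays were found by the mean absolute difference of log2 deviations, among 10306 named genes above background. For Hoxa9 they were Aspscr1, Tlr6, Mllt3, Nfe2 and Gpld1, which differed from it by 0.038 to 0.061, where Hoxa9 itself spanned 0.63 from its lowest to its highest array. Mllt3, the gene of AF9, read 105, 106 and 100.04 in WT compared with 105, 86.1 and 133 in Evi1 Tg. For Pbx3, which spanned 1.64, they were Cbfa2t3, Cgnl1, Sh2d5, Rnf43 and Il12a, at 0.064 to 0.16. Cbfa2t3, which encodes the transcriptional corepressor ETO2, read 76.3, 104 and 67.1 in WT versus 178, 211 and 116 in Evi1 Tg. That its Evi1 Tg 3 value lies nearest to WT, as for Pbx3, follows from its choice by likeness to Pbx3. For Meis1 they were Uaca, Epop, Ano6, Pdlim1 and Ywhah, less close at 0.17 to 0.22. Epop, which encodes a partner of Polycomb repressive complex PRC2, read 102, 83.3 and 103 in WT compared with 159, 211 and 151 in Evi1 Tg. These likenesses describe 6 arrays and were not tested.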

How the data were processed

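Per the labels' protocols, RNA was labelled by means of the GeneChip WT PLUS kit. The authors' deposited table holds 1 intensity per probe set and array, whose range is that of a linear scale. How its background was corrected and how it was normalized and summarised is not given in the sources used. Gene symbols came from the array platform's annotation. Of 34351 probe sets, 23521 had 1 symbol, 1814 several and 9016 none, and the one with the highest mean over 6 arrays stood for a gene. Chromosomes, gene order and promoters came from RefSeq tables of GRCm38.p6. Coordinates belong to that build, since the array's build is not given.

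Log2 intensities, with no pseudocount and no filter, were fitted with limma 3.58.1 (lmFit, then eBayes) under R 4.3.3. P-values were adjusted over 22180 genes by Benjamini and Hochberg's method, at a threshold of 0.05. Exact permutation tests used scipy 1.17.1, and figures matplotlib 3.10.9. On simulated data for this comparison over 22180 genes, the fit recovered 72% of 2-fold and 97% of 4-fold differences and called 6 unchanged genes. The simulated noise was independent from gene to gene. It left out effects that many genes of an array share, such as those of the cell division genes. These shares therefore check the fit and are not the recovery to be had in these data. The number of arrays limits the precision.

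The members, lists and tests were chosen with earlier results of these data known. Besides members and Mecom, the rule named in each related list every gene past the threshold (otherwise the 2 of smallest p) and the 5 genes most like Hoxa9, Meis1 and Pbx3. The genes named beyond it were chosen after their values were seen. The likeness search skipped olfactory, vomeronasal, T cell receptor and immunoglobulin genes, small RNAs and predicted genes.

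The alternatives concerned scaling (quantile normalization, median centring), a pseudocount of 16, a filter on dim genes, the fit (trend and robust eBayes, array weights, a replicate block), the probe sets (their mean, or others of a member) and the samples (each array left out, Evi1 Tg 1 and 2 averaged).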

Additional observations from a re-analysis of the deposited data

How the results depend on the processing

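No member passed under any of 15 alternatives (limma, adjusted p from 0.0738 upward), and the differences of Hoxa3, Hoxa6, Hoxa7, Hoxa10, Meis1 and Pbx3 kept their sign in all 15. With 1 array left out in turn, differences ran from 0.31 to 0.56 for Hoxa3, -0.019 to 0.36 for Hoxa5, 0.033 to 0.29 for Hoxa6, 0.41 to 0.57 for Hoxa7, -0.18 to 0.14 for Hoxa9, -0.49 to -0.28 for Hoxa10, 0.56 to 1.13 for Meis1 and 0.82 to 1.30 for Pbx3. Hoxa9 also turned its sign, to 0.060, with Evi1 Tg 1 and 2 averaged, and the cause was not tested. Leaving out 1 array gave 2 to 173 genes lower and 0 to 383 higher, against 23 and 2. Evi1 Tg 1 and 2 averaged gave 6 and 0, a pseudocount of 16 gave 9 and 0, and array weights gave 82 and 32. Dim genes left out and eBayes with trend and robust settings gave 6 higher each.

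Deviations of same-numbered arrays correlated at 0.19, -0.18 and 0.061 across genes, and those of other-numbered arrays at -0.23 to 0.12. Whether the replicate numbers pair the samples cannot be decided from this, since deviations within a group of 3 arrays depend on one another. With the replicate block 9 genes were lower and 0 higher, and the block called 0 members. For Pbx3 the SE was 0.135 with the block (limma adjusted p = 0.166), against 0.265 without it.

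Among targets of HOXA9 or MEIS1, 1 gene was called with dim genes left out, with eBayes trend and robust settings and with array weights (Erg each time). The filter on dim genes kept Erg through its Evi1 Tg values, as given above. With 1 array left out, 0 to 1 genes of this list were called. The median of that list was 0.043 with Evi1 Tg 1 and 2 averaged and -0.064 to 0.031 with 1 array left out. Regulators of Hox transcription had 0 to 3 calls with 1 array left out. With dim genes left out the median was -0.16 for the Hoxa locus and 0.11 for Hoxb genes, and the Hoxc cluster gave no value because no gene was left. With 1 array left out the medians were -0.087 to 0.056 for the Hoxa locus, 0.011 to 0.069 for Hoxb, 0.046 to 0.11 for Hoxc, -0.00042 to 0.052 for Hoxd, 0.020 to 0.082 for TALE genes and 0.043 to 0.20 for regulators. Signal near background bounds the differences of Hoxa3, Erg and the genes of the Hoxb, Hoxc and Hoxd clusters.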

Other observations

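Pknox2, a TALE gene that encodes a PBX partner, had an intensity of 476 in WT 2, against 65.2 and 72.4 in WT 1 and WT 3 and 59.0 to 72.6 in Evi1 Tg. It was picked after its values were seen. Its log2 difference was -1.02 with all arrays and -0.092 without WT 2. Csn2, the beta casein gene, was listed as silent in blood cells but read 5527, 475 and 1035 in WT versus 2266, 2027 and 522 in Evi1 Tg. Mpo, the myeloperoxidase gene of myeloid precursors, read 92.7, 68.1 and 252.5 in WT compared with 1192, 863 and 525 in Evi1 Tg (log2 difference 2.80, SE 0.507, limma adjusted p = 0.139), with Evi1 Tg 3 the lowest of its group, as it was for Meis1, Pbx3 and Cd34. Adgre1, which encodes the macrophage marker F4/80, read 1374, 1016 and 969 in WT versus 477, 411 and 659 in Evi1 Tg (log2 difference -1.13, SE 0.205, limma adjusted p = 0.139). Its Evi1 Tg 3 value was the nearest to WT, while for Erg and Lmo2 the Evi1 Tg 1 value was. Both genes were the extremes of their lists. Mpo had the highest difference of the 10 myeloid genes, of which 5 lay above 0 and 5 below (median -0.0043). Adgre1 had the lowest of the 11 measured genes of mature granulocytes and macrophages, of which 4 lay above 0 and 7 below (median -0.73).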
